A study of Homo sapiens with 28 samples.

Results

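The 40 genes described here are the enzymes and transporters of glycolysis and lactate handling together with genes known as hypoxia-type targets. They were taken by gene symbol from a fixed list of names, out of 56809 genes in the deposited count and abundance tables. The list was made with earlier results of these data known. All 40 symbols were found. A low-count filter passed 39 of them among 18624 genes tested. The 1 left out was EGLN3, a prolyl hydroxylase gene, which was listed at 0 in most libraries and never exceeded 0.974 TPM, an abundance scaled by transcript length and library size.

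The libraries came from U937, an established human myeloid leukaemia line with monocytic features, in which single NF-kB genes had been knocked out. Controls (CTR) were 3 clones targeted with non-specific guide RNAs. Knockout clones were labelled for p65 (3 clones), p50, p52, cREL or RELB (2 clones each), where p65 is the product of RELA, p50 of NFKB1 and p52 of NFKB2. Each of the 14 clones was sequenced untreated and after lipopolysaccharide (LPS) at 500 ng/ml, with a 6 h time point on both, which gave 28 libraries in 12 groups. Cells were grown in serum-containing medium with added pyruvate, and the labels give no low-oxygen condition. The labels name 3 sample batches, of which batch A held no CTR clone, so each knockout clone of that batch was compared with controls of other batches through a batch term. A clone is 1 cultured line, and p-values measure the spread between such lines, which can carry differences of their own.

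Glycolysis converts glucose to pyruvate in the cytosol. Uptake by facilitative transporters, phosphorylation by hexokinase and the phosphofructokinase step are its best known control points, and lactate dehydrogenase turns pyruvate to lactate. Hypoxia inducible factor (HIF) is a dimer whose alpha subunit is hydroxylated and degraded when oxygen is plentiful. Stabilised HIF binds a short core motif, ACGTG or GCGTG, near many glycolytic genes. In myeloid cells, LPS sensed by TLR4 activates NF-kB and is known to raise glucose uptake and glycolysis.

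Between 12643438 and 22122428 estimated counts were assigned to genes per library, and the 40 genes held 2.11 to 3.39% of all TPM. The monocytic markers LYZ (mean 1047 TPM), CD33 (124 TPM) and CD4 (113 TPM) were present, while CD14 averaged 1.17 TPM and MPO 0.04 TPM. Defining markers of other blood cells, CD3D for T cells, MS4A1 for B cells and PF4 for platelets, were at 0 in all 28 libraries, although NKG7, also known from natural killer cells, averaged 340 TPM. In 2 of the 3 p65 clones RELA messenger RNA was at 3.20 to 8.19 TPM, against 23.2 to 38.3 TPM in the other genotypes. The libraries labelled p65 replicate 1 held 43.7 and 52.1 TPM, which goes against a loss of the transcript, so the p65 values of SLC2A3, PFKFB3, HIF1A, ADM and SLC2A5 are also given without that clone. The RELB transcript did not mark the RELB clones either: it went from 2.48 to 11.4 TPM and from 5.83 to 19.3 TPM with LPS, against 3.80 to 26.2 TPM in CTR. REL was 8.61 and 7.11 TPM in cREL clone 1 and 2.91 and 2.49 TPM in cREL clone 2, against 10.4 to 14.7 TPM in CTR. NFKB1 was 2.75 to 6.83 TPM in p50 and 5.68 to 14.5 TPM in CTR, and NFKB2 0.842 to 1.96 TPM in p52 and 0.767 to 7.51 TPM in CTR. A transcript level does not show whether protein is made. All 7 LPS reference genes (NFKBIA, TNFAIP3, NFKBIZ, CXCL8, IL1B, SOD2 and ICAM1) were higher with LPS in all 14 clones, apart from ICAM1 in p65 clone 1 (−0.03, log2 CPM). For IL1B the difference was 4.65 to 5.71 in CTR, 4.78 and 5.19 in RELB, 2.34 to 2.98 in p50, p52 and cREL, and 0.40 to 1.96 in p65.

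Promoter sequences are shown for PFKFB3, HIF1A and DDIT4, which passed with LPS in CTR in at least 1 of the fits described here, and for LDHA, a well known hypoxia-type target that passed in none, so that the motifs can be read beside the responses. ADM and HK2 also passed there in 1 fit and are not printed. The sequences come from RefSeq (GRCh38.p14), where 35 of the 40 symbols were matched and BNIP3L, NDRG1, SLC16A1, SLC2A3 and VEGFA were not. Each run ends at the RefSeq start or, where that is earlier, before the first exon that GENCODE v29 places in the window. Capitals mark the hypoxia core ACGTG or GCGTG on either strand, so CACGT and CACGC are cores read on the other strand, and the palindrome CACGTG counts as 2 overlapping cores. The first PFKFB3 run lies at chr10:6144671-6144920 (+), just upstream of the gene, and the second at chr10:6202682-6202865 (+), inside the gene and upstream of an internal start. The HIF1A run is chr14:61695263-61695512 (+), the DDIT4 run chr10:72273674-72273919 (+) and the LDHA run chr11:18394313-18394387 (+), all upstream of their gene.
PFKFB3, upstream start: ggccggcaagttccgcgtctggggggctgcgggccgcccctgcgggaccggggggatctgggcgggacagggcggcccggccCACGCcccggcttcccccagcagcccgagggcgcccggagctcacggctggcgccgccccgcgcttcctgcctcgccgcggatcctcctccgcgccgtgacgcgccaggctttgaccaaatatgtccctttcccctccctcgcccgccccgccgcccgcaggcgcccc
PFKFB3, internal start: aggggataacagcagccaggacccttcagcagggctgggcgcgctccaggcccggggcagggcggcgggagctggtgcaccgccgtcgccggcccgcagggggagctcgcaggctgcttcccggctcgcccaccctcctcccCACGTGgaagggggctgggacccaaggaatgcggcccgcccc
HIF1A: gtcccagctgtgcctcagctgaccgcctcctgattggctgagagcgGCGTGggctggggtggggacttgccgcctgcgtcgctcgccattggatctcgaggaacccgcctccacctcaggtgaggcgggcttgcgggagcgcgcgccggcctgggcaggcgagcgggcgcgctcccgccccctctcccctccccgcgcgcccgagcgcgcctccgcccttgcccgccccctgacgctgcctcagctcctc
DDIT4: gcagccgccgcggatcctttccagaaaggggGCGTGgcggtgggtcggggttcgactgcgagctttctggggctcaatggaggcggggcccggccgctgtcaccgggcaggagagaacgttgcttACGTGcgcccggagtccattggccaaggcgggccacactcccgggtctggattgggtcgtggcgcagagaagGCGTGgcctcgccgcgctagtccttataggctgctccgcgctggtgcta
LDHA: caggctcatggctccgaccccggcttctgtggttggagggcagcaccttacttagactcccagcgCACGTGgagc

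The first PFKFB3 run held 1 core and the second 2, those of 1 palindrome. HIF1A had 1 core, DDIT4 3 and the short LDHA run of 75 bases 2, also those of 1 palindrome. The full window of the reference table was 300 bases, from 250 before to 50 after a start. In that window the LDHA start of the printed run held 6 cores, DDIT4 4, HIF1A 1, and PFKFB3 1 and 2. The runs differ in length, so their counts cannot be ranked against each other. Of the genes not printed, ADM held 1 core in the full window and the HK2 starts held 3 and 6. For the shares, only the first listed start of each symbol was counted. There 25 of 35 members (71.4%) held a core on either strand, against 48.4% of all 27305 symbols. Some members, among them PDK1 and TPI1, held a core only at a later start. ACGTG alone was found in 15 of 35 members (42.9%) and in 21.6% of all symbols. A loose NF-kB site pattern, GGG and CC with any 5 bases between them, searched on both strands, was found in 88.6% of members and 58.0% of all symbols. It matched 4 times in the first PFKFB3 run, 2 times in the DDIT4 run and 1 time each in the second PFKFB3, HIF1A and LDHA runs. These matches are letters in a window, base composition was not compared between the sets, and no match is a measured binding site.

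Levels of the 40 genes spanned the range from the most abundant messengers of the cell to the limit of detection. By mean TPM over 28 libraries, GAPDH led at 5989 TPM, followed by the enolase ENO1 (4151 TPM), the aldolase ALDOA (2970 TPM) and the pyruvate kinase PKM (2141 TPM). TPI1, PGK1, LDHB, LDHA, GPI and PGAM1 lay between 940 and 1563 TPM. A single isoform dominated at the aldolase and enolase steps, where ALDOA and ENO1 far exceeded ALDOC and ENO2. PFKP (phosphofructokinase, platelet type) exceeded PFKL in every genotype and treatment but by less, with means of 265 and 149 TPM. HIF1A averaged 69.8 TPM, SLC2A1 60.8 TPM and PFKFB3 58.8 TPM. SLC2A3 averaged 28.5 TPM and stood 27th in the order of means, but its highest library was 10.8 times its lowest. All these values are on the TPM scale, which is per transcript length, so levels of different genes can be set side by side.

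**Figure D1:**
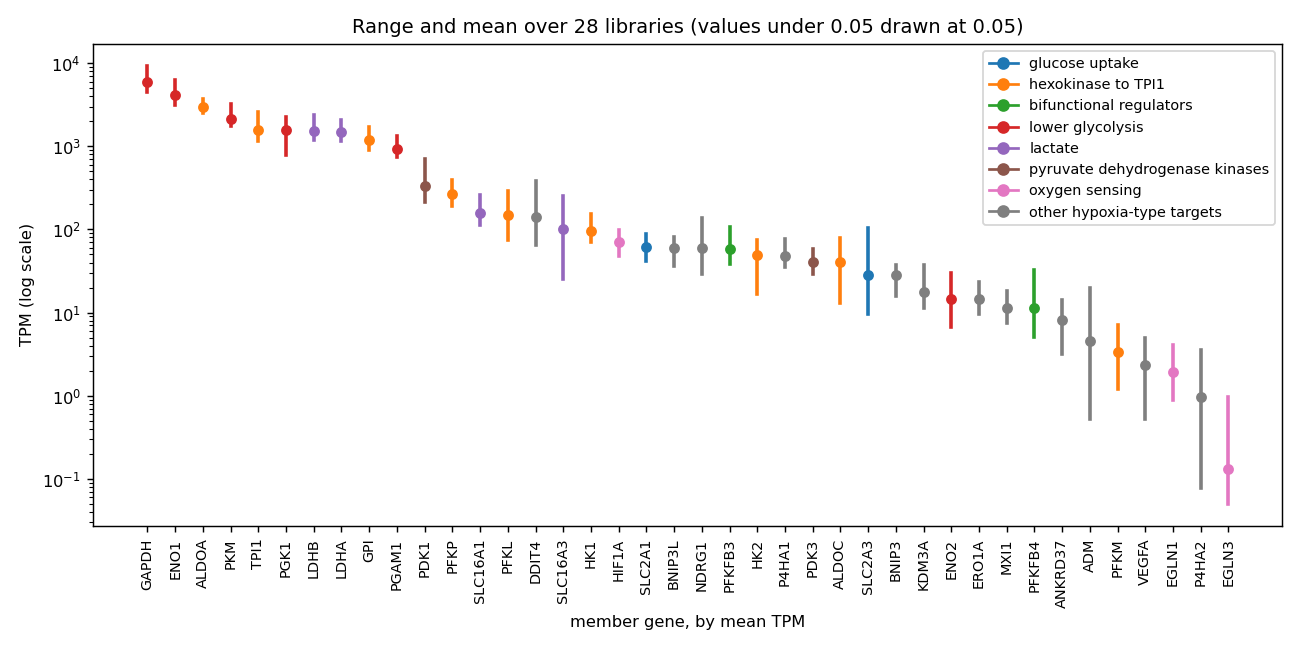
Level of each of the 40 genes on a log TPM axis. Points are means over 28 libraries and bars run from the lowest to the highest library, coloured by role, with values under 0.05 TPM drawn at 0.05. GAPDH lies highest at 5989 TPM and EGLN3 lowest at 0.13 TPM.

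Glucose enters these cells through the transporters encoded by SLC2A1 (GLUT1) and SLC2A3 (GLUT3), the latter known for its high affinity. In CTR clones 1, 2 and 3, SLC2A3 went from 16.0 to 48.6 TPM, from 24.4 to 61.6 TPM and from 17.2 to 56.5 TPM with LPS. RELB clones went from 37.7 to 69.6 TPM and from 52.4 to 103 TPM. Every CTR and RELB clone was higher with LPS, and the untreated and LPS libraries of each genotype did not overlap. In p50 clones the values were 22.2 and 24.8 TPM in clone 1 and 18.6 and 16.5 TPM in clone 2, untreated and with LPS. The p52 clones gave 16.7 and 17.8 TPM, then 19.9 and 16.9 TPM, and the cREL clones 18.4 and 19.0 TPM, then 13.3 and 12.1 TPM. The p65 clones gave 15.2 and 16.9 TPM, 9.50 and 15.2 TPM, and 18.9 and 19.1 TPM. With LPS, none of the 9 libraries of these 4 genotypes exceeded 24.8 TPM, so all lay below each CTR and RELB library.

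**Figure D2:**
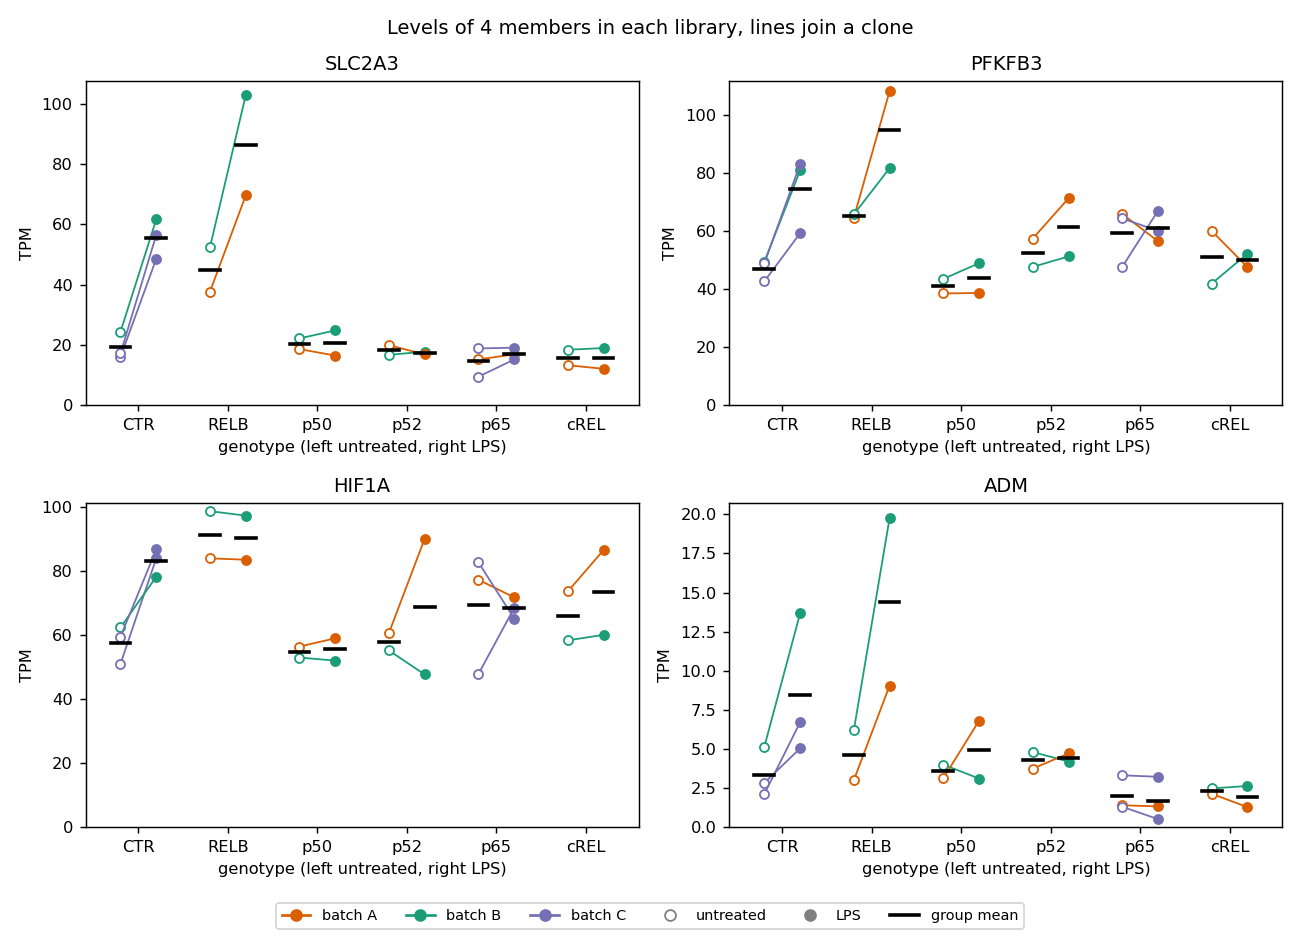
Levels in TPM of SLC2A3, PFKFB3, HIF1A and ADM in all 28 libraries, by genotype, with untreated libraries open and on the left and LPS libraries filled and on the right. Lines join the libraries of 1 clone, colours are the labelled batches and black bars are group means. SLC2A3 lies between 48.6 and 103 TPM in CTR and RELB with LPS and at 24.8 TPM or less in the other genotypes.

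The effect of LPS in CTR clones was fitted by edgeR's quasi-likelihood test, with Benjamini-Hochberg adjustment over all 18624 genes, and values after ± beside a log2 fold change are standard errors. SLC2A3 rose by 1.64 ± 0.20 (log2, 3.11-fold, adjusted p = 9.1e-05), higher in 3 of 3 clones. In CTR, 3 of 39 members rose and none fell, where 0.408% of all genes tested passed in either direction. The other 2 were PFKFB3 and HIF1A. SLC2A1 had a log2 fold of 0.18 ± 0.17 and did not pass. These being bulk libraries, more cells expressing a gene and more RNA per cell cannot be told apart.

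None of the members passed in the LPS effect of the other 5 genotypes, where 0.0161% (p50), 0.0215% (p52), 0.0268% (p65), 0.0107% (cREL) and 0.129% (RELB) of all genes passed. For SLC2A3 the log2 folds were 1.00 ± 0.23 in RELB, 0.32 in p65, 0.14 in cREL, −0.06 in p52 and −0.12 in p50 (the RELB value had an adjusted p of 0.193 by the same edgeR test). Without p65 replicate 1 the p65 value was 0.37. When each clone was its own block, which compares the treated and untreated culture of 1 clone, the RELB value of 1.00 passed (adjusted p = 0.0121). That blocked fit passed 3 of 39 members in RELB (DDIT4, PFKFB3 and SLC2A3) and 0.435% of all genes, and 6 of 39 in CTR (ADM, DDIT4, HIF1A, HK2, PFKFB3 and SLC2A3) and 1.27% of all genes. An unadjusted p under 0.05 was reached by 5 of 39 members in CTR (5.12% of all genes), 5 in RELB (2.89%) and 0 in p50, p52, p65 and cREL (1.79, 1.96, 1.56 and 1.72%). DESeq2 and limma voom each passed 3 members in CTR, 1 in RELB and 0 in those 4 genotypes. DESeq2 passed 0.832% of all genes in CTR, 0.311% in RELB, 0.0537% in p50, 0.0752% in p52 and 0.043% in each of p65 and cREL. For limma voom the shares were 1.05, 0.322, 0.0161, 0.043, 0.0107 and 0.00537% in CTR, RELB, p50, p52, p65 and cREL.

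The LPS response of SLC2A3 was set against that of CTR in each knockout. The log2 differences were −1.76 (p50), −1.70 (p52), −1.32 (p65) and −1.49 (cREL), and none passed by edgeR. Of all genes 0 (p50), 0 (p52), 0.0161% (p65), 0 (cREL) and 0 (RELB) passed in these comparisons, which share the CTR libraries, and 2.95, 2.55, 2.79, 3.01 and 2.14% had an unadjusted p under 0.05. With the clone block, p50 (−1.76, adjusted p = 0.0185), p52 (−1.68, adjusted p = 0.0352) and p65 (−1.27, adjusted p = 0.0312) passed for SLC2A3 by edgeR, with 0.0107, 0.00537 and 0.0752% of all genes. Without p65 replicate 1 the p65 difference was −1.25 (adjusted p = 1), and −1.19 with the block (edgeR adjusted p = 0.227). The blocked call was thus lost without this clone, in a fit where 2 of all 18463 genes tested passed. No other clone was left out under the block. The RELB response minus that of CTR was −0.64 ± 0.30 (adjusted p = 1), and so was not shown to differ. Averaged over p50, p52, p65 and cREL, the response differed from that of CTR by −1.57 ± 0.22 and from that of RELB by −0.93 ± 0.26. These 4 genotypes were put together with the SLC2A3 pattern known, so both averages are a description and no test of them is given.

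Levels with LPS were compared between each knockout and CTR by the same edgeR test. SLC2A3 was lower in cREL by a log2 fold of −1.95 ± 0.25 (adjusted p = 0.00195) and in p65 by −1.76 ± 0.20 (adjusted p = 6.13e-05). It was also lower in p52, by −1.90 ± 0.25 (adjusted p = 0.00367), and in p50, by −1.62 ± 0.24 (adjusted p = 0.00927). It was the 1 member of 39 past the threshold in p50, p52 and cREL, and 1 of 2 in p65, beside 0.129, 0.0698, 0.199 and 0.993% of all genes. In RELB the log2 fold was 0.33 ± 0.23, no member passed, and 0.0483% of all genes did. Leaving out p50 replicate 2 or CTR replicate 2 raised the p50 value to an adjusted p of 0.250 or 0.0847. Leaving out a p52 clone gave 0.245 or 0.200, and leaving out cREL replicate 2 gave 0.109. Without the library pair labelled p65 replicate 1, the p65 difference was −1.74 (adjusted p = 0.0023).

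Within batches the direction was the same. Batch B held 1 clone each of CTR, p50, p52, cREL and RELB, and there SLC2A3 with LPS stood at 61.6, 24.8, 17.8, 19.0 and 103 TPM in that order. Batch C held CTR clones 1 and 3 and p65 clones 2 and 3, and its own fit gave an LPS effect in CTR of 1.77 (edgeR adjusted p = 0.187) and a p65 difference with LPS of −1.83 (adjusted p = 0.147). Batch A had no CTR clone and gave no such value.

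Before LPS, no member passed in any knockout against CTR, where 0 (p50), 0 (p52), 0.0537% (p65), 0 (cREL) and 0.0107% (RELB) of all genes passed, and 6.42, 7.6, 12.9, 5.78 and 11% had an unadjusted p under 0.05. By that looser rule the members gave 4, 3, 7, 2 and 6 of 39 in the same order. DESeq2 passed 1 member in cREL (P4HA1) and 2 in RELB (PFKP and SLC2A3), beside 0.22, 0.333, 1.71, 0.129 and 1.17% of all genes in the same order. Limma voom passed none in any of the 5, beside 0.00537, 0.0107, 0.0537, 0.00537 and 0.0268%. Untreated SLC2A3 in RELB, at 37.7 and 52.4 TPM, lay above all 3 untreated CTR libraries (16.0 to 24.4 TPM). Its log2 fold was 0.97 ± 0.23 and missed the threshold (edgeR adjusted p = 0.136). P4HA1, a collagen prolyl hydroxylase subunit, had a log2 fold of 0.70 ± 0.16 in untreated cREL (adjusted p = 0.380 by edgeR and 0.0199 by DESeq2).

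The balance of the 2 glucose transporters moved with SLC2A3, since SLC2A1 stayed between 42.2 and 88.6 TPM over all 28 libraries. The ratio of SLC2A3 to SLC2A1 TPM was 0.281 to 0.577 in untreated CTR libraries and 0.892 to 1.20 with LPS. In RELB it was 0.685 to 0.778 untreated and 1.17 to 1.30 with LPS. The 9 clones of the other genotypes gave 0.167 to 0.461 untreated and 0.204 to 0.491 with LPS. Their LPS range lay below that of CTR and of RELB, and overlapped their own untreated range. The hexokinase pair moved less: HK2 to HK1 was 0.370 to 0.538 in untreated CTR and 0.549 to 0.593 with LPS. LDHA to LDHB lay between 0.718 and 1.26 over all libraries. Untreated p65 clones 1, 2 and 3 had ratios of 1.11, 1.09 and 1.26, above the 11 other untreated libraries (0.823 to 1.05). With LPS they gave 1.14, 1.15 and 0.718, so that clone 3 lay below all other libraries and the genotype no longer stood apart. The ratio was not tested.

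SLC2A3 lies on the short arm of chromosome 12 (GRCh38 chr12:7919230-7936275, minus strand, GENCODE v29) and has a close paralogue, SLC2A14. Reads shared by such copies are divided by the abundance estimate. SLC2A14 held 2.03 to 25.2 estimated counts per library beside 441 to 3806 for SLC2A3, and all 4 listed copies together held at most 4.40% of the sum with SLC2A3. For BNIP3, a mitophagy receptor gene with 39 listed copies, that share was 0.302 to 3.76%, and for GAPDH with 62 copies 0.0575 to 0.164%.

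PFKFB3 encodes a bifunctional enzyme that makes the sugar bisphosphate known to activate phosphofructokinase. In CTR clones 1, 2 and 3 it went from 42.7 to 59.3 TPM, from 49.4 to 80.9 TPM and from 48.9 to 83.1 TPM with LPS. In RELB it went from 64.6 to 108 TPM and from 65.8 to 81.7 TPM. The untreated and LPS libraries did not overlap in CTR or in RELB. In p50 the pairs were 43.6 and 49.0 TPM, and 38.5 and 38.7 TPM, and in p52 they were 47.7 and 51.3 TPM, and 57.4 and 71.3 TPM. In cREL they were 41.9 and 52.2 TPM, and 60.1 and 47.6 TPM, and in p65 65.9 and 56.6 TPM, 47.7 and 67.0 TPM, and 64.4 and 60.1 TPM. In each of these 4 genotypes the untreated and LPS libraries overlapped.

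PFKFB3 rose with LPS in CTR by 0.77 ± 0.16 (log2, edgeR adjusted p = 0.0392), higher in 3 of 3 clones. This call lies close to the threshold: it was lost without CTR replicate 1, 2 or 3 (adjusted p = 0.130, 0.192 and 0.739) and kept in 4 of 14 fits that each left out 1 clone, with log2 folds from 0.61 to 0.86. In RELB the log2 fold was 0.70 ± 0.20 (adjusted p = 0.568, and 0.0478 with the clone block). It was 0.26 in p52, 0.16 in p65, 0.07 in cREL and −0.01 in p50. Against CTR with LPS, PFKFB3 had log2 folds of −0.85 (p50, adjusted p = 0.113), −0.57 (p65, 0.115 adjusted) and −0.59 (cREL, 0.297 adjusted), none of which passed. Without p65 replicate 1 the p65 values were −0.46 against CTR with LPS (adjusted p = 0.403) and 0.20 for the LPS effect. Its relative PFKFB4 lay between 5.10 and 32.7 TPM, with its highest pair, 32.7 and 23.9 TPM, in RELB clone 2, and did not pass in any of these comparisons.

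The enzymes from hexokinase to triose phosphate isomerase comprised 9 members, HK1, HK2, GPI, PFKP, PFKL, PFKM, ALDOA, ALDOC and TPI1. None passed in any LPS effect or against CTR in the edgeR fit of all 28 libraries without a clone block. DESeq2 passed PFKP in untreated RELB (−0.54, adjusted p = 0.0171), and ALDOC in RELB with LPS (0.98, adjusted p = 0.0202) and in the mean of 5 knockouts with LPS (0.68, adjusted p = 0.0151). Without p65 replicate 1, edgeR passed PFKP in untreated RELB too (−0.65, adjusted p = 0.0444). Their LPS log2 folds in CTR ran from −0.14 to 0.40 with a median of 0.07, and in RELB from −0.01 to 0.47 with a median of 0.20. HK2, the inducible hexokinase, was the highest of the 9 in CTR at 0.40. Its CTR values were 40.5 and 64.5 TPM, 44.9 and 60.5 TPM, and 52.6 and 63.0 TPM, all higher with LPS, and it passed with the clone block (0.40, edgeR adjusted p = 0.0268). ALDOA, the most abundant of the group, had 2642 to 3029 TPM in untreated CTR and 2489 to 3243 TPM with LPS, which overlapped.

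In a grouping also chosen with results known, all 3 CTR libraries with LPS lay above all 9 libraries of p50, p52, p65 and cREL for 2 of 39 members, SLC2A3 and HK2, and for 1.14% of all genes. HK2 was 60.5 to 64.5 TPM in CTR and 16.8 to 54.7 TPM in those 9 libraries, the lowest being cREL clone 2, which was also low untreated (22.1 TPM).

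No gene of lower glycolysis passed with LPS. GAPDH, PGK1, PGAM1, ENO1, ENO2 and PKM had LPS log2 folds from −0.01 to 0.30 in CTR (median 0.05) and from 0.05 to 0.59 in RELB (median 0.16). The upper value in both was ENO2, the enolase better known from neurons, at 6.73 to 29.6 TPM over all libraries. ENO1 gave 3966 to 4666 TPM in untreated CTR and 3641 to 5224 TPM with LPS. The 4 lactate genes, LDHA and LDHB for the dehydrogenase subunits and SLC16A1 and SLC16A3 for monocarboxylate carriers, had LPS log2 folds from −0.17 to 0.06 in CTR and from 0.05 to 0.20 in RELB. LDHA, whose short promoter run above holds 2 cores and whose full window holds 6, was 1336 to 1520 TPM in untreated CTR and 1355 to 1565 TPM with LPS. PDK1 and PDK3, kinases that switch off pyruvate dehydrogenase, had −0.01 and −0.21 in CTR.

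Of the oxygen sensing members, HIF1A rose with LPS in CTR by 0.71 ± 0.15 (log2, edgeR adjusted p = 0.0337). The CTR clones went from 51.1 to 84.1 TPM, from 62.4 to 78.3 TPM and from 59.5 to 86.9 TPM, with no overlap of the treatments. On the TPM scale RELB clones were high in both states, at 84.0 and 83.6 TPM in clone 1 and 98.8 and 97.4 TPM in clone 2. This depended on the scale, since TPM also divides by an effective length that differed between libraries. In CPM, counts scaled by library size alone, the RELB clones went from 114 to 125 and from 119 to 147. CTR libraries with LPS held 154 to 168 CPM. The fitted log2 fold in RELB, from counts, was 0.23. In p50 HIF1A stayed between 52.1 and 59.1 TPM. In p52 it was 55.3 and 47.8 TPM in clone 1 and 60.7 and 90.2 TPM in clone 2, so the 2 clones went in opposite directions. The p65 clones ranged from 47.9 to 82.8 TPM and the cREL clones from 58.4 to 86.7 TPM, with overlapping treatments in both. The CTR call was kept in 3 of 14 fits that each left out 1 clone, and without CTR replicate 1, 2 or 3 the adjusted p was 0.439, 0.169 and 0.178. Against CTR with LPS the log2 folds of −0.76 (p50), −0.70 (p52) and −0.58 (p65) had adjusted p of 0.115, 0.150 and 0.0728. Without p65 replicate 1 the p65 value was −0.57 (adjusted p = 0.239). EGLN1, the main HIF prolyl hydroxylase, was low, at 0.888 to 4.05 TPM, and did not pass.

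The remaining 12 hypoxia-type targets gave 1 call by edgeR, ADM in p65 against CTR with LPS, where SLC2A3 was the other member to pass. ADM encodes adrenomedullin, a secreted vasodilator peptide. Its CTR values were 2.84 and 5.04 TPM, 5.14 and 13.7 TPM, and 2.13 and 6.71 TPM, untreated and with LPS. The p65 clones gave 1.41 and 1.34 TPM, 3.32 and 3.23 TPM, and 1.32 and 0.527 TPM. All 3 p65 libraries with LPS lay below all 3 CTR libraries with LPS, with a log2 fold of −2.54 ± 0.51 (edgeR adjusted p = 0.0146). Without CTR replicate 2, p65 replicate 1 or p65 replicate 3 the adjusted p was 0.0799, 0.114 and 0.0766. ADM reached 9.05 and 19.8 TPM in RELB with LPS, from 3.01 and 6.19 TPM. Its LPS log2 folds were 1.32 ± 0.47 in CTR (adjusted p = 0.586, and 0.0465 with the clone block) and 1.66 ± 0.58 in RELB (adjusted p = 1, and 0.0805 with the block).

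DDIT4, an inhibitor of mTORC1 also known as REDD1, went from 109 to 167 TPM, from 138 to 263 TPM and from 86.6 to 190 TPM in the CTR clones. In RELB it went from 190 to 387 TPM and from 150.2 to 225 TPM. All 5 of these clones were higher with LPS, and the treatments did not overlap in either genotype. The log2 fold was 0.89 ± 0.32 in CTR (adjusted p = 0.620 by edgeR, and 0.00111 with the clone block) and 0.97 ± 0.39 in RELB (adjusted p = 1, and 0.00974 with the block). VEGFA, the vascular growth factor, stayed between 0.521 and 4.96 TPM. BNIP3, BNIP3L, ANKRD37, NDRG1, P4HA1, P4HA2, MXI1, KDM3A and ERO1A did not pass in any comparison with CTR or with LPS by edgeR. DESeq2 passed P4HA1 untreated in cREL and in the mean of 5 knockouts (0.46, adjusted p = 0.0343). ANKRD37, an ankyrin repeat gene, had a log2 fold of 1.18 in RELB that rested on clone 2, which went from 4.03 to 14.1 TPM while clone 1 went from 7.34 to 9.09 TPM.

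**Figure D3:**
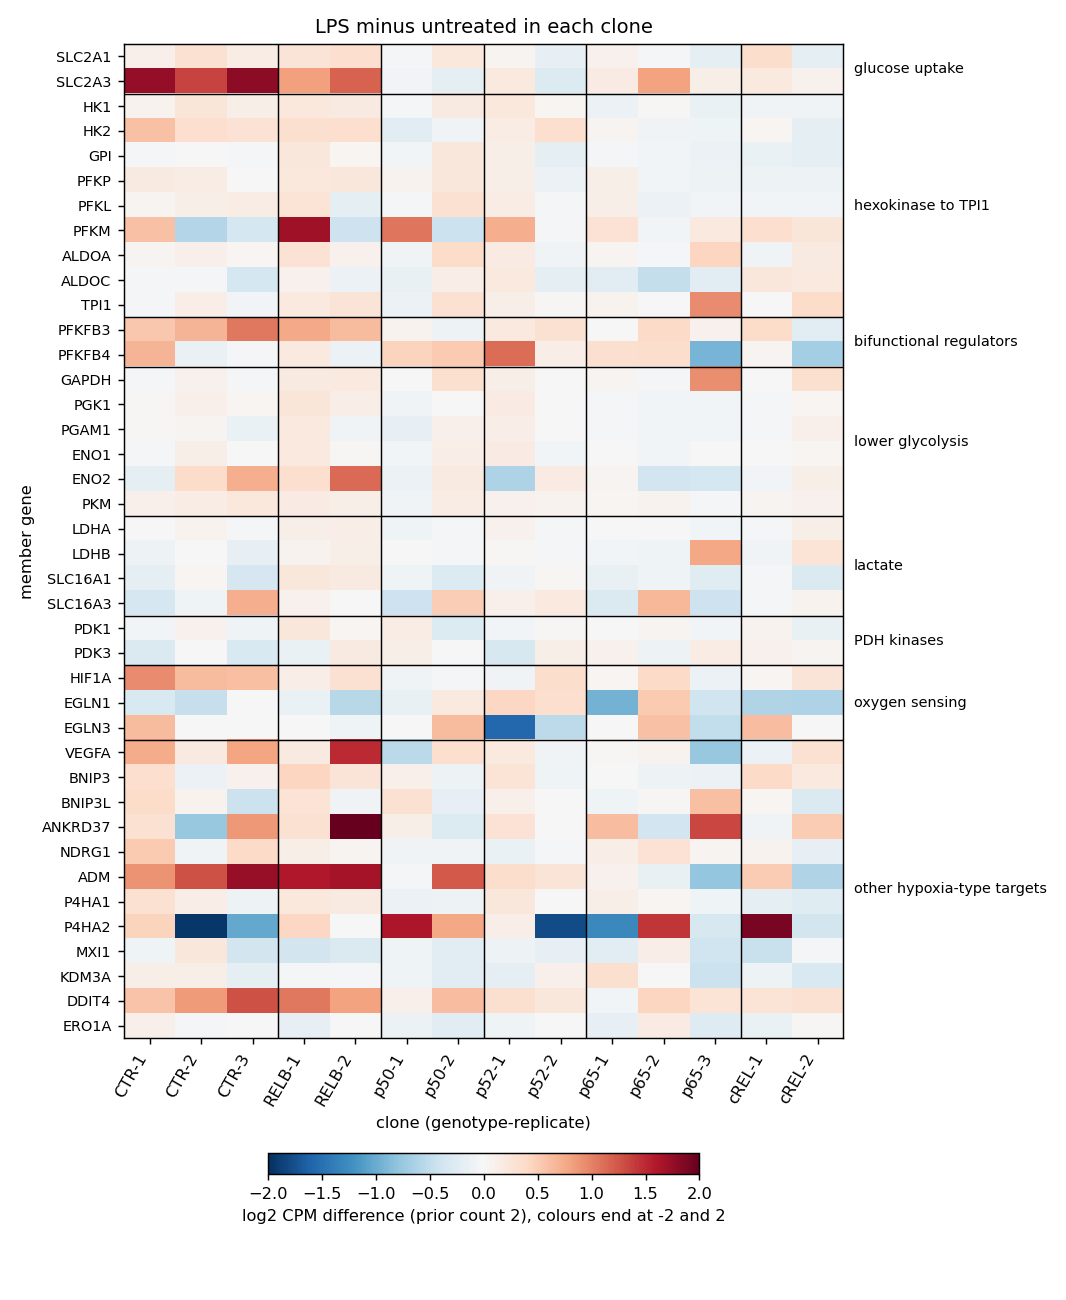
Difference between LPS and untreated for each of the 40 genes (vertical axis, grouped by role) in each of 14 clones (horizontal axis), as log2 CPM, counts scaled by library size, with a prior count of 2, and colours that end at −2 and 2. SLC2A3 is 1.35 or more in the 3 CTR clones. Strong colours in P4HA2, PFKM and ANKRD37 are in genes of low level.

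Set clone by clone against the 38 members other than PFKFB3, SLC2A3 had the largest rise with LPS in each CTR clone. These differences are in log2 CPM, counts scaled by library size, with a prior count of 2. In CTR clones 1, 2 and 3 the SLC2A3 difference between LPS and untreated was 1.76, 1.35 and 1.79, above each of these 38 genes in all 3 clones. In RELB it was 0.81 and 1.17, above 35 of 38 in both clones. In p65 it was 0.17, 0.81 and 0.12, the middle value being above 37 of 38. The others were −0.05 and −0.20 (p50), 0.20 and −0.28 (p52), and 0.19 and 0.08 (cREL). PFKFB3 gave 0.54, 0.68 and 1.05 in CTR, above 30, 36 and 36 of the same 38, and 0.76 and 0.63 in RELB, above 35 and 33.

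**Figure D4:**
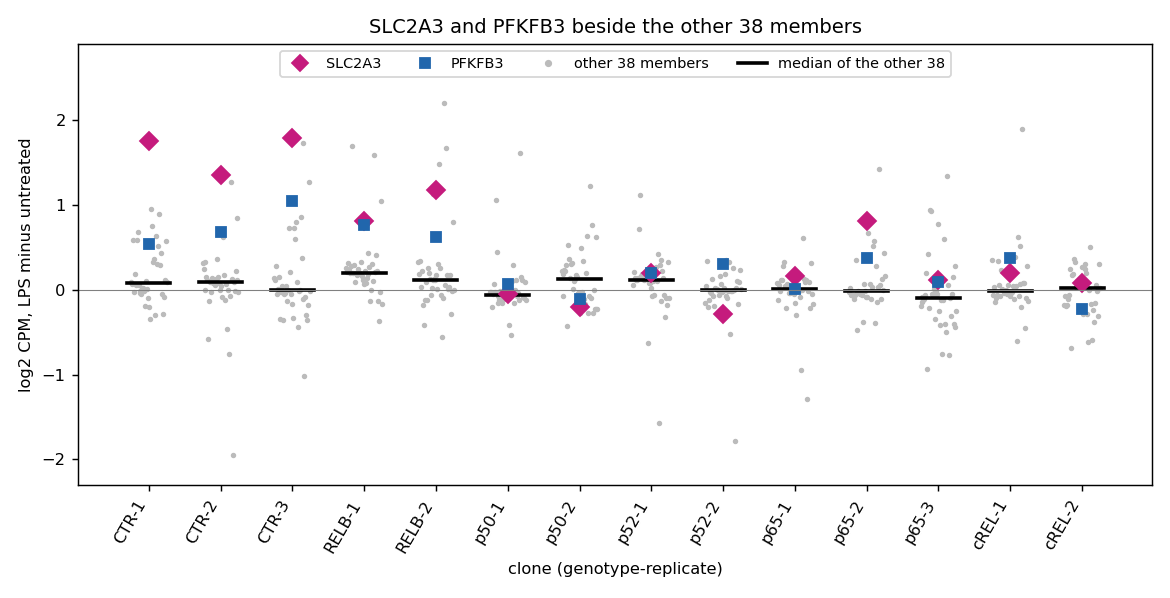
Difference between LPS and untreated in log2 CPM (vertical axis) in each of 14 clones (horizontal axis). Diamonds are SLC2A3, squares PFKFB3, grey points the other 38 genes and black lines their median. SLC2A3 lies at 1.35 to 1.79 in CTR and at 0.81 and 1.17 in RELB, while the medians of the others lie near 0.

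The SLC2A3 difference minus the median of the same 38 genes was 1.58 ± 0.28 in CTR (SD, n = 3), 0.83 ± 0.31 in RELB (SD, n = 2) and 0.40 ± 0.37 in p65 (SD, n = 3). It was 0.13 in cREL, −0.10 in p52 and −0.16 in p50. For PFKFB3 the same measure was 0.70 ± 0.31 in CTR and 0.54 ± 0.04 in RELB, and it lay between −0.06 and 0.19 in the other 4 genotypes. These are descriptions, because both genes were known from earlier results of these data to move. The pooled CTR and RELB response minus that of the other 4 genotypes was 1.25 ± 0.19 for SLC2A3, 0.62 ± 0.16 for PFKFB3 and 0.64 ± 0.31 for DDIT4, a split made from this pattern and so given with no test.

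Averaged over the 6 genotypes, the LPS effect on SLC2A3 was 0.49 ± 0.09 (edgeR adjusted p = 0.0111), the 1 member of 39 beside 0.403% of all genes. Leaving out p50 replicate 1, p52 replicate 1, cREL replicate 1 or RELB replicate 2 raised the adjusted p to 0.0755, 0.125, 0.0776 and 0.119, and with the block PFKFB3 (0.32) and DDIT4 (0.50) passed too, beside 0.886% of all genes. Averaged over the 5 knockouts no member passed, beside 0.177% of all genes. With the block DDIT4 did (0.41, adjusted p = 0.00698), beside 0.43%. The mean of the 5 knockouts with LPS was below CTR for SLC2A3 (−1.38 ± 0.16, adjusted p = 3.13e-04, and −1.35 without p65 replicate 1), the 1 member of 39 beside 0.838% of all genes. Untreated, that mean gave no member and 0.0322% of all genes.

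Over the tested members other than SLC2A3 and PFKFB3, the median LPS log2 fold was 0.06 in CTR, 0.00 in p50, 0.05 in p52, −0.02 in p65, 0.02 in cREL and 0.18 in RELB, beside medians of all genes between −0.01 and 0.01. In RELB 34 of 39 members had a positive log2 fold, where 50.6% of all genes did. By direction alone, 28 of 39 members were higher with LPS in both RELB clones and 4 lower, beside 25.8% and 26.6% of all genes. In CTR 14 were higher in all 3 clones and 3 lower, beside 16.2% and 13% of all genes. The RELB count depended on the scale: on log2(TPM + 1), 14 members were higher in both clones, where 14.4% of all genes were, and in RELB clone 2 the members above 0 went from 29 to 15 of 39.

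For most members the spread between clones of 1 genotype was larger than the mean LPS difference in CTR and in RELB. This was measured for the members alone, so the counts below have no share of all genes beside them. On log2(TPM + 1), the standard deviation between untreated clones within genotypes (pooled, 8 degrees of freedom) had a median of 0.330 over 39 members, and the mean LPS difference in CTR had a median size of 0.106. That difference was larger than the standard deviation for 6 members, SLC2A3, PFKFB3 (0.64 against 0.20), ADM, DDIT4, HIF1A and HK2. In RELB it was larger for 8, SLC2A3, PFKFB3, ADM, DDIT4, ANKRD37, VEGFA, PFKM and MXI1, of which MXI1 was lower with LPS. RELB clone 2 had the highest clone mean for 16 of 39 members and p65 clone 3 for 11. This count too was made for the members alone, so it does not set them apart from other genes. In RELB clone 2, PDK1 stood at 697 and 604 TPM untreated and with LPS, and NDRG1, a stress-induced gene, at 137 and 87.0 TPM. Neither fell with LPS in CPM, counts scaled by library size alone, where PDK1 had 1362 and 1397 and NDRG1 94.7 and 98.7. The lactate exporter gene SLC16A3 was 251 and 174 TPM in p65 clone 3 but 25.4 and 38.4 TPM in p50 clone 2. ALDOC ranged from 13.3 and 13.0 TPM in CTR clone 1 to 78.3 and 59.6 TPM in RELB clone 2, and PFKL from 73.9 and 87.0 TPM in RELB clone 1 to 294 and 238 TPM in p65 clone 3. A summed level of 6 proliferation genes was 1623 to 1919 TPM in CTR, 1064 to 1788 TPM in RELB and 1690 to 2498 TPM in p65, and its part in these differences was not tested.

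Clone differences were also seen along chromosomes. GAPDH, TPI1, LDHB, ENO2 and SLC2A3 all lie on the short arm of chromosome 12. Deviations were taken from the median of each gene over the 28 libraries. Over 120 other genes of that arm, the median log2 deviation was 0.32 and 0.29 in CTR clone 1 (untreated and with LPS). It was 0.39 and 0.42 in p65 clone 3 and 0.32 and 0.17 in RELB clone 2. Over 403 genes of the long arm it was 0.38 and 0.36 in CTR clone 1, 0.52 and 0.42 in RELB clone 2, and 0.01 and −0.06 in p65 clone 3. CTR clone 1 also had −0.43 and −0.50 on chromosome 6, which holds VEGFA, and −0.38 and −0.38 on chromosome 15, which holds PKM. RELB clone 2 had −0.52 and −0.62 on chromosome 7, and p65 clone 3 had 0.61 and 0.52 on chromosome 18. GAPDH was 9040 and 8949 TPM in CTR clone 1 and 5760 and 9269 TPM in p65 clone 3, and at most 6811 TPM in the other 24 libraries. In p65 clone 3 the short arm median was similar in both states. There GAPDH, TPI1 and LDHB were higher with LPS by 0.94, 0.95 and 0.77 (log2 CPM). Without CTR clone 1 and p65 clone 3, with RELB clone 2 kept, the GAPDH mean fell from 5989 to 5612 TPM. That of TPI1 fell from 1563 to 1441 TPM and that of LDHB from 1519 to 1454 TPM. PGK1, on the X chromosome, was 814 and 789 TPM in p65 clone 2, where the median deviation over 317 genes of that chromosome was −0.29 and −0.27. The part of chromosome copy number in these levels was not tested. For SLC2A3, CTR clone 1 was the lowest of the 3 CTR clones in both states (16.0 and 48.6 TPM), while p65 clone 3 (18.9 and 19.1 TPM) and RELB clone 2 (52.4 and 103 TPM) were the highest of their genotypes.

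**Figure D5:**
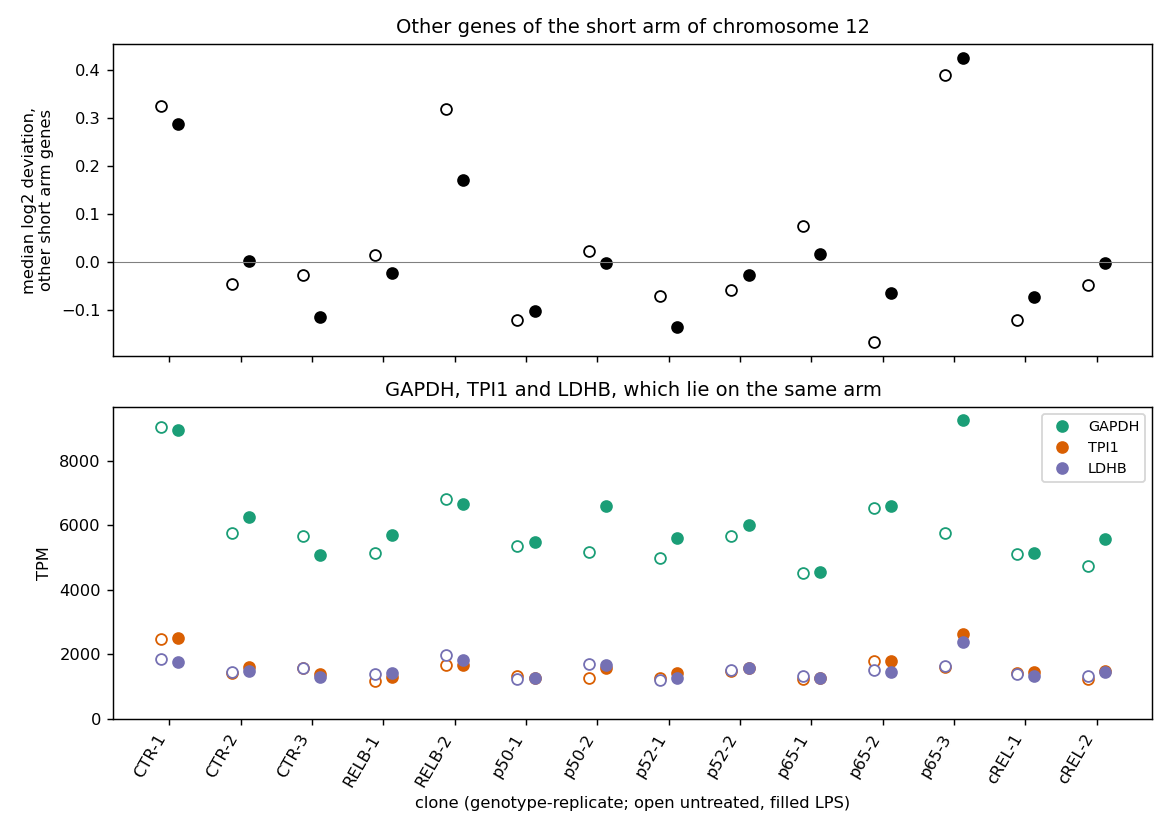
Upper panel, median log2 deviation of 120 other genes on the short arm of chromosome 12 in each clone, and lower panel, TPM of GAPDH, TPI1 and LDHB, which lie on that arm. Open points are untreated and filled points LPS. CTR clone 1, RELB clone 2 and p65 clone 3 stand above the other clones in the upper panel. GAPDH reaches 9040 TPM in untreated CTR clone 1 and 9269 TPM in p65 clone 3 with LPS.

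Neighbouring pathways, taken as lists of genes outside the 40, gave 1 call with LPS in CTR and 0 in RELB. The call came from 8 tested genes of 16 other isoforms: SLC2A6, a lysosomal sugar transporter gene of macrophages, went from 0.97 ± 0.27 TPM to 12.7 ± 6.55 TPM in CTR (SD, n = 3; log2 fold 3.69 ± 0.72, edgeR adjusted p = 0.0207). In RELB SLC2A6 went from a mean of 1.76 TPM to 5.69 TPM, and the other genotypes averaged 4.15 TPM or less with LPS. SLC2A5, a fructose transporter gene, was higher in p65 than in CTR with LPS, at 27.0 ± 4.83 TPM against 18.2 ± 1.52 TPM (SD, n = 3 each; log2 fold 0.69 ± 0.15, adjusted p = 0.0324). Without p65 replicate 1 the SLC2A5 value was 0.72 (adjusted p = 0.0742). None of 8 pentose phosphate genes, 10 genes of the HIF machinery, 16 tested further hypoxia-type genes and 6 tested growth regulators passed in CTR or RELB with LPS. BHLHE40, a hypoxia-induced repressor, came nearest among them, with 0.57 ± 0.16 in CTR (adjusted p = 0.234). Of 22 genes of pyruvate entry and the citric acid cycle none passed. ACOD1, which makes itaconate in LPS-treated macrophages, was listed at 0 in all untreated libraries and at 0.589 to 8.52 TPM in CTR with LPS, and did not pass (adjusted p = 0.195).

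The genes whose levels followed SLC2A3 most closely over the 28 libraries, by Pearson correlation of log2 CPM after removing batch means, were EAF1 (0.90), SGK1 (0.89), DCUN1D3 (0.88), CISH (0.87) and CSF2RB (0.87). Those closest to PFKFB3 were PIM1 (0.92), IL4R (0.89), ATF3 (0.87), PRDM1 (0.87) and ICAM1 (0.87). SLC2A3 and PFKFB3 correlated with each other at 0.77. The libraries of 1 clone are not independent and the genes were picked as the highest of all tested, so these values only describe which patterns look alike.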

How the data were processed

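RNA-seq of polyA RNA was measured in 28 libraries, amplified from 2 ng of RNA with oligo(dT) priming, per the labels' protocols. Per the submitters' processing notes, the authors used FastQC 0.11.7 and Salmon 0.11.3 with GRCh38; the options of these tools are not stated in the labels. The deposited tables hold estimated counts, TPM and effective lengths per gene, all made by the authors; effective lengths (another unit, in bases, as deposited) served as an offset in 1 alternative. Transcript ends and lengths enter TPM through these lengths, and amplification duplicates cannot be told from molecules.

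The estimated counts were rounded and tested with edgeR 4.0.16 (R 4.3.3): filterByExpr with a minimum count of 10 and a minimum total of 15, TMM scaling, 12 groups plus batch, robust quasi-likelihood tests with 14 residual degrees of freedom, and Benjamini-Hochberg adjustment over 18624 genes within each of 29 comparisons at 0.05. The biological coefficient of variation was 31.7%. Same-clone libraries deviated together (correlations from 0.203 to 0.441, 10 distinct values over 14 clones since 2 clones of a genotype mirror each other, paired by the label's clone number), so a clone block was fitted as an alternative with 8 residual degrees of freedom. Other alternatives were DESeq2 1.42.0, limma 3.58.1 voom, other scaling, filter and batch settings, batch C alone and each clone left out. The clone block without p65 replicate 1, SLC2A5 without it, the chromosome 12 values and the spread within genotypes were chosen after seeing the data. The script was tested on simulated data.

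The members, lists and comparisons were chosen with earlier results of these data known. Text values cover all 40 genes: in full for SLC2A3, PFKFB3 and members past the threshold, and for up to 2 abundant members per role. Promoter motifs were counted in the RefSeq table.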

Additional observations from a re-analysis of the deposited data

Results flagged for a closer look

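With each clone as its own block, the SLC2A3 response to LPS differed from that of CTR in p50 (−1.76), p52 (−1.68) and p65 (−1.27) by edgeR, and none of the 3 passed without the block. The p65 value was −1.19 (adjusted p = 0.227) without p65 replicate 1. These comparisons share the CTR libraries, so they are not independent of each other. Genotype groups of 2 or 3 clones were too small for a test of outlying libraries.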

How the results depend on the processing

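Leaving out 1 clone at a time, between 1 and 3 members passed with LPS in CTR, 1 or 2 in p65 against CTR with LPS and in the mean of 5 knockouts with LPS, and 0 to 2 in cREL with LPS. The range was 0 to 1 for the LPS effect in RELB, untreated RELB, p50 and p52 with LPS, the p50 and p52 responses minus CTR and the averages over 6 genotypes, over 4 knockouts minus CTR and over CTR and RELB minus 4 knockouts, and 0 throughout in all other comparisons. Over all comparisons of these fits, the share of all genes passing began at 0. It reached 2.16% without p65 replicate 2 and 1.96% without p65 replicate 1, and at most 1.09% without any other clone. SLC2A3 minus the median of the others ranged from 1.47 to 1.73 in CTR and 0.18 to 0.52 in p65, and PFKFB3 from 0.52 to 0.82 and 0.09 to 0.29.

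For the LPS effect in CTR (3 members), 1 passed without a batch term, 1 with the effective length offset, 6 with the replicate block and 0 in batch C alone, which has 4 clones. In RELB (0 members), 1 passed with DESeq2, limma voom or no low-count filter and 3 with the block. Against CTR untreated (0 members), no filter gave 2 in p65 (GAPDH and SLC16A3) and 1 in RELB, and DESeq2 gave 1 in cREL, 2 in RELB and 1 in the mean of 5 knockouts. With LPS, DESeq2 gave 3 in p50, 2 in p52, 4 in p65, 2 in cREL, 1 in RELB and 3 in the mean of 5 knockouts, beside 1.27, 1.43, 3.49, 1.23, 1.16 and 2.87% of all genes. No filter gave 2 in p50, in cREL and in that mean, no batch term 2 in that mean, and p65 had 1 with the length offset and 0 in batch C alone. For the responses minus CTR (0 members), p50, p52 and p65 had 1 each with DESeq2, limma voom, no filter and the block, and cREL had 1 with DESeq2 and no filter. The mean over 6 genotypes (1 member) gave 2 with DESeq2, 3 with limma voom, 2 without the filter and 3 with the block, the mean over 5 knockouts (0) gave 1 without the filter and 1 with the block, and CTR and RELB minus the other 4 (1) gave 2 with limma voom and 3 with the block. On log2(TPM + 1), SLC2A3 minus the others was 0.0001 in cREL, PFKFB3 minus the others was 0.49 in RELB, and 14 members were higher in both RELB clones. Over all comparisons the share of all genes passing was 0.0161 to 3.49% with DESeq2, 0 to 1.36% with limma voom, 0.0733 to 2.6% without the filter, 0 to 1.2% without a batch term and 0 to 0.736% with the length offset, against 0 to 0.993% as reported, so counts of members are read against these shares. The splits that put CTR with RELB or average the other 4 genotypes were chosen with results known, and their counts support nothing. The cause of these changes was not tested.

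Signs that changed were all of values that passed no test. PFKFB3 with LPS in cREL ranged from −0.2351 without cREL replicate 1 to 0.3842 without cREL replicate 2. In p50 it was 0.0636 with the length offset and ranged from −0.1103 without p50 replicate 1 to 0.091 without p50 replicate 2, being 0.0063 without CTR replicate 2, 0.0064 and 0.0052 without p65 replicate 1 or 2 and 0.0033 without RELB replicate 1. SLC2A3 with LPS was −0.0089 in cREL with the length offset, and in p52 it ranged from −0.313 without p52 replicate 1 to 0.1727 without p52 replicate 2.

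The replicate block changed no call other than those printed, and it could not be fitted for knockout against CTR, since each clone has 1 genotype. Depth limits ADM, VEGFA, EGLN1, PFKM and P4HA2, which lay at a few TPM. A comparison of protein identity was not run, for lack of a protein table here.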
